A study of Drosophila melanogaster with 46 samples.

Results

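The regions described here are larval Pita peaks that overlapped a listed CP190 peak and no listed larval CTCF or Su(Hw) peak. They were chosen by overlap of the authors' chromatin immunoprecipitation sequencing (ChIP-seq) peak lists. A larval Pita peak was a member when it shared at least 1 bp with a larval CP190 peak and with no larval CTCF or Su(Hw) peak. Of 1213 larval Pita peaks on the main chromosomes 596 were members, out of 14902 peaks in the 7 lists together. A further 301 Pita peaks overlapped no larval peak of the other proteins. Peaks of CP190 with CTCF or Su(Hw) or both were met by 262, and of CTCF or Su(Hw) without CP190 by 54. The choice was made by peaks of Pita and CP190 and by no peak of CTCF or Su(Hw) in these larval lists. Values from these larval lists are therefore given as description, without a test. Absence from a larval list does not show that a site was unbound.

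Pita is a zinc-finger protein with a cluster of C2H2 fingers that reads DNA and a ZAD domain at its start, through which such proteins form dimers. It is known as an architectural protein of the fly, with binding at boundaries of the bithorax complex and at many promoters. CP190 does not read a long DNA word itself. It is brought to DNA by C2H2 proteins including Pita, CTCF and Su(Hw), and is found at insulators and at promoters of active genes.

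The Pita, CTCF and Su(Hw) lists are named for wild-type animals, which the labels give as genotype dCTCFwt in strain y1w1118, sampled as whole larvae or adults. The protocol describes chromatin of third-instar larvae alone, and CTCF was precipitated through an HA tag. The larval and adult Pita groups had 2 samples each, and each list gives 1 fold per peak. Further columns on the 2 inputs of each list are tied to no sample and were not used, so no value below is given with an error between animals. The larval CP190 list names no genotype, and 14 of the 18 CP190 samples came from mutants. These were dCTCFdeltaCP larvae, in which the CP190-interacting domain of CTCF is mutated, alone or combined with SuHwdelta114, with PitadeltaCP1 or with both. CP190 values are therefore for larvae of unstated genotype, and no list was named for a mutant, so the loss of the CP190-interacting part of Pita could not be followed here. Whole animals mix all cell types, so a site bound strongly in few cells and one bound weakly in many cannot be told apart. Read depth is unknown, because a peak list does not give it. Positions are on the dm6 build. All values are fold enrichments over the authors' control, which is not named.

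The members spanned the range from barely enriched to strong Pita binding. Their Pita fold ran from 1.63 to 71.7, with a median of 8.04 and quartiles of 3.97 and 15.9. Pita-only peaks without CP190 had a median of 2.81 and peaks shared with CTCF or Su(Hw) and CP190 one of 8.77. None of the 10 strongest Pita peaks of the larval list was a member (exact interval up to 30.85%). Of the strongest 121, the top 10%, 58 were members (47.9%, exact interval 38.8% to 57.2%). Members were 596 of all 1213 larval Pita peaks, a share inside the interval of the top 10% and above that of the 10 strongest. CP190 fold at the members ran from 2.07 to 70.2, with a median of 11.3 and quartiles of 5.32 and 21.7. The median was 9.46 at CTCF-only peaks, 7.48 at Su(Hw)-only peaks and 16.6 at Pita peaks shared with CTCF or Su(Hw). It was 3.59 at CP190 peaks with no larval Pita, CTCF or Su(Hw) peak. The members met 600 of the 4220 CP190 peaks, and 116 of the 422 strongest, the top 10% by fold.

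Pita and CP190 summits lay close together. The median distance was 25 bp, with quartiles of 11 and 58.3 bp, and 435 members (73.0%, exact 95% interval 69.2% to 76.5%) had both summits within 50 bp. The Pita summit fell inside the CP190 peak at 586 of 596 members. Stronger Pita peaks had closer summits, with a median distance of 50 bp in the weakest quartile of Pita fold and 14 bp in the strongest. Over the same quartiles the median CP190 fold was 4.85, 9.83, 12.1 and 20.8. Over the 596 members the Spearman correlation of Pita and CP190 fold was 0.55, given as a description, since both values of a point come from 1 site and share its mappability and base composition.

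**Figure D1:**
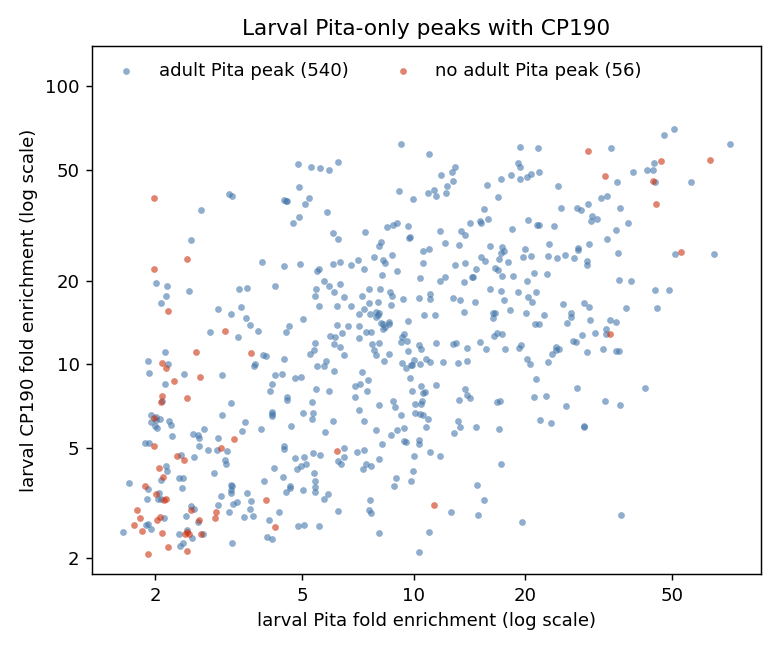
Larval Pita fold (x axis, log scale) against larval CP190 fold (y axis, log scale) at the 596 members, 1 point each, coloured by whether the adult Pita list has a peak at the site. CP190 fold tends to be higher at stronger Pita peaks, with wide scatter, and the 56 sites without an adult peak lie mostly at low Pita fold, with 8 at 29.5-fold or more.

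The highest member by Pita fold was at X:16269854-16272121, with 71.7-fold Pita and 62.3-fold CP190. Its summit lay 81 bp from an end of Mfe2, which encodes a peroxisomal enzyme of fatty acid oxidation, inside the span of kat80, a subunit of the microtubule-severing enzyme katanin. The next was at X:19850864-19852973, between Nup205, which encodes a scaffold protein of the nuclear pore, and pico, with 65.01-fold Pita and 25.0-fold CP190. The third lay inside Abd-B, the Hox gene of the posterior abdomen, at 3R:16969382-16970488, 2509 bp from the nearest gene end, with 63.2-fold Pita and 54.5-fold CP190. CP190 differed in height among Pita peaks of similar height.

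The remaining 7 of the 10 highest ran from 56.1-fold to 46.7-fold Pita. They were at CG2121, between CG5823 and P5cr-2, a proline synthesis gene, near mnb, which encodes a protein kinase needed for brain growth, near Sxl, at UQCR-Q and near RpL30, with 1 more inside tau, 874 bp from RpS10a. At X:7097797-7099822, beside Sxl, which sets sexual identity (distance 148 bp), Pita was 50.5-fold and CP190 70.2-fold, the highest value of the CP190 list. At UQCR-Q, a respiratory chain gene at 3L:17473519-17476332, Pita was 47.5-fold and CP190 66.7-fold. Both stood among the 10 strongest CP190 peaks, and no other member did.

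Of the other members with the highest CP190 fold, the sites at Mfe2 and in Abd-B had 71.7-fold and 63.2-fold Pita, as given above. The rest, which follow, had lower Pita values than the sites at Sxl and UQCR-Q. The intergenic site 1126 bp from tRNA:Gln-CTG-4-1, at 2L:14010980-14012106, had 62.0-fold CP190 and 9.26-fold Pita. At RpS27, a small ribosomal subunit gene, CP190 was 60.5-fold and Pita 19.4-fold. At the pair RpS28a and Axn, the latter a scaffold of Wnt signalling, they were 59.9-fold and 21.7-fold. Between CG16903 and Unc-76, needed for axonal transport, they were 60.1-fold and 34.1-fold. Between smg, which encodes a translational repressor of the embryo, and CG5087 they were 58.5-fold and 29.5-fold. A bithorax site inside MSAmiP, 12860 bp from the nearest gene end, that of lncRNA:iab4, had 57.0-fold CP190 and 10.97-fold Pita.

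Both proteins could also be far apart in height. At X:8574101-8574679, 49 bp from an end of CG12065, CP190 was 39.6-fold and Pita 1.99-fold. Inside CG32982, at 2L:9157992-9158826 and 5227 bp from any gene end, CP190 was 2.85-fold and Pita 36.3-fold. These sites have the largest and the smallest ratio of the authors' folds among the members.

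The main result on position was that these sites sat at gene ends. A gene end lay within 500 bp of the Pita summit at 482 of 596 members (80.9%, exact 95% interval 77.5% to 84.0%), against a background of 66.1% over all larval Pita peaks, which include the members. The share was 47.5% at the 301 Pita-only peaks without CP190 (41.8% to 53.3%), 56.1% at the 262 Pita peaks shared with CTCF or Su(Hw) and CP190 (49.9% to 62.2%), 68.2% at the 267 CTCF-only peaks with CP190 (62.2% to 73.7%) and 36.1% at the 1009 Su(Hw)-only peaks with CP190 (33.1% to 39.1%). Position was not used to choose the peaks, so the differences were tested with two-sided Fisher exact tests, with Benjamini-Hochberg adjustment over 12 tests. The odds at members were 4.67 times those at Pita-only peaks without CP190 (95% interval 3.45 to 6.34, Fisher exact adjusted p = 2.92e-23) and 3.31 times those at shared Pita peaks (2.41 to 4.55, adjusted p = 5.85e-13). They were 1.98 times those at CTCF-only peaks with CP190 (1.42 to 2.74, Fisher exact adjusted p = 0.000132) and 7.49 times those at Su(Hw)-only peaks with CP190 (5.89 to 9.54, adjusted p = 2.61e-70). The unit of these tests is a peak of 1 list, so these p-values carry no variation from animal to animal.

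**Figure D2:**
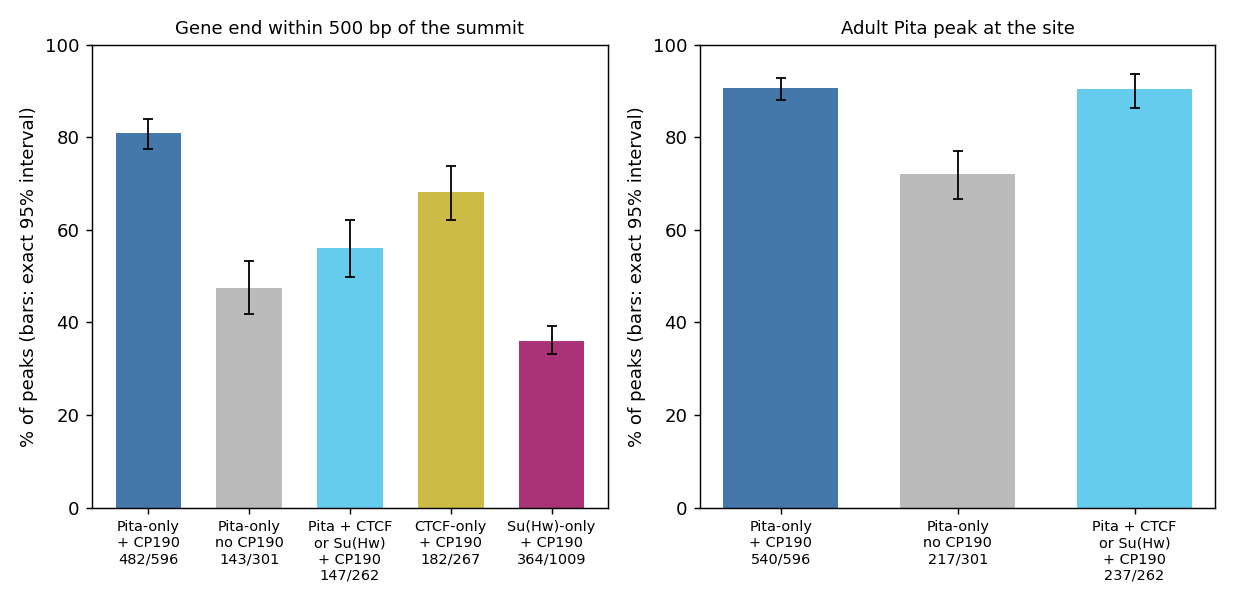
Percent of peaks (y axis) with a gene end within 500 bp of the summit, left, and with an adult Pita peak at the site, right, by group of larval peaks, with the counts under each bar and exact 95% intervals as error bars. Members, in dark blue, stand at 80.9% and 90.6%, above Pita-only peaks without CP190 at 47.5% and 72.1%.

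The share was similar at weak and strong member peaks. It was 83.2%, 77.2%, 83.2% and 79.9% in rising quartiles of Pita fold among the members. When members and Pita-only peaks without CP190 were compared within quartiles of Pita fold, the odds ratio was 4.97 (exact Mantel-Haenszel test, adjusted p = 4.9e-20). The difference was small in the strongest of these quartiles, with 78.8% of 179 members against 75.0% of 24 peaks without CP190. In the other quartiles, from the weakest up, it was 84.0% against 52.0%, 79.5% against 38.5% and 82.2% against 31.2%. Whether the quartiles differ was not tested. In rising quartiles of CP190 fold the share of members was 77.2%, 77.9%, 79.9% and 88.6%.

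The median distance from a member's summit to the nearest gene end was 112 bp, with quartiles of 57 and 313 bp. It was 588 bp at Pita-only peaks without CP190, 372 bp at shared Pita peaks, 200 bp at CTCF-only peaks and 1054 bp at Su(Hw)-only peaks with CP190. Many members lay where neighbouring genes meet: 318 (53.4%, 49.3% to 57.4%) had ends of 2 or more genes within 500 bp, against 21.9% of Pita-only peaks without CP190, 21.8% of shared Pita peaks, 34.1% of CTCF-only and 12.7% of Su(Hw)-only peaks with CP190. These last shares were not tested. The summit was outside any gene at 408 members, and 368 of them had a gene end within 500 bp. The gene table gives no strand, so the start of a gene and its other end could not be told apart, nor could divergent promoters.

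**Figure D3:**
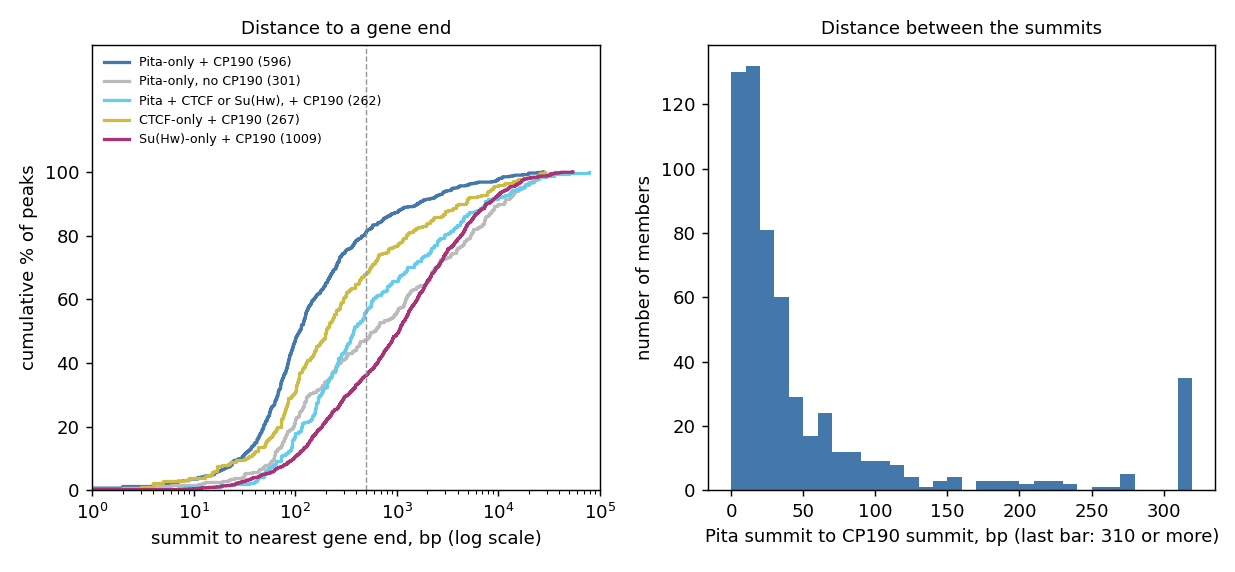
Left, cumulative percent of peaks (y axis) by distance from the summit to the nearest gene end in bp (x axis, log scale), by group. The dashed line is at 500 bp, where the member curve stands highest, at 80.9%. Right, number of members (y axis) by distance between the Pita and CP190 summits in bp (x axis). Most members lie within 50 bp.

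A minority lay away from gene ends. Of the 114 members over 500 bp from a gene end 74 were inside a gene and 40 in no gene, and 25 members were over 5000 bp from any end. Their Pita fold had a median of 7.51 over the 114, against 8.06 at the members near an end, and their CP190 fold one of 8.06 against 11.8.

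Ribosomal protein genes were frequent beside the members. An end of 775 of 13946 protein-coding genes lay within 500 bp of a member summit, a background of 5.56%. Of 93 cytoplasmic ribosomal protein genes 20 did (21.5%, exact 95% interval 13.7% to 31.2%), with a median Pita fold of 17.9 at their peaks. They included RpL30 (46.7-fold Pita and 53.8-fold CP190), RpS14a (44.3 and 49.9), RpL23 (39.0 and 49.2) and RpL22 (35.7 and 25.2). The same list had 2 genes (2.15%) near Pita-only peaks without CP190, beside 1.41% of all protein-coding genes. Near shared Pita peaks it had 4 (4.30%), beside 1.39%, so a ribosomal share above that of all genes was not particular to the members. CTCF-only and Su(Hw)-only peaks with CP190 met 2 (2.15%) and 1 (1.08%) ribosomal protein genes, beside 1.85% and 3.11% of all protein-coding genes. These counts were not tested, and the gene lists were written with earlier results of these data known. Both ends of a short gene can fall in 1 window.

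Of 51 translation initiation and elongation factor genes 8 lay near a member (15.7%, 7.02% to 28.6%). The strongest were eIF4G2, a scaffold of translation initiation, with 24.6-fold Pita, eIF1 (20.1-fold), which helps select the start codon, eIF2Bepsilon (13.9-fold), part of a nucleotide exchange factor, and eEF2 (8.92-fold), which moves the ribosome along the messenger. Their peaks carried CP190 of 43.9, 15.3, 11.5 and 7.01-fold.

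Mitochondrial ribosomal protein genes counted 7 of 73 (9.59%), led by mRpL1 (25.8-fold Pita), mRpL33 (15.9-fold), mRpL47 (9.77-fold) and mRpL27 (8.75-fold). Respiratory chain genes counted 5 of 87 (5.75%), close to the background, although UQCR-Q and the complex I gene ND-B8 (29.8-fold) are strong sites. Proteasome genes counted 5 of 48 (10.4%), with Prosbeta2R2 at 31.4-fold and Rpt4, an ATPase of the regulatory particle, at 11.1-fold. Intervals of these shares include the background.

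Cell cycle regulators counted 4 of 39, namely Cdk4, which drives growth and division (8.16-fold Pita), Cdk8 of the Mediator kinase module (5.32-fold), CycT of the elongation factor P-TEFb (2.15-fold) and E2f2, a repressor of the E2F family (1.79-fold). Polycomb and Trithorax group genes counted 2 of 25, which were trx, a histone methyltransferase that keeps Hox genes active, with 9.16-fold Pita and 41.9-fold CP190, and kis, a chromatin remodeller, with 8.60-fold and 14.2-fold. RNA polymerase II and Mediator genes counted 3 of 39, Polr2E (7.68-fold Pita), MED16 (5.10-fold) and Polr2A (3.98-fold), the largest subunit. Of 38 DNA replication genes dup, the origin licensing factor, was near a member (9.22-fold), and of 33 aminoacyl-tRNA synthetase genes HisRS (27.8-fold). In the order given the shares of these lists were 10.3%, 8%, 7.69%, 2.63% and 3.03%. Each exact interval included the background of 5.56%, and these shares were not tested.

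Cuticle and chemosensory genes were rarely met. Of 136 cuticle protein genes TwdlG was near a member, at 2.47-fold Pita, and of 231 chemoreceptor and odorant binding protein genes Obp28a (21.9-fold) and Ir21a (6.20-fold). These shares were 0.735% and 0.866%, against the background of 5.56%. None of 12 genes of the Hox complexes, 24 Notch pathway genes or 20 insulator and architectural protein genes had an end within 500 bp of a member summit, which at exact 95% intervals allows shares of up to 26.5%, 14.2% and 16.8%. The strong peak in Abd-B lies deeper inside the gene. Of 295 tRNA genes 9 did (3.05%) and of 257 snoRNA genes 1 did, snoRNA:Or-aca4, against 4.59% of all genes. The tRNA genes included tRNA:Pro-CGG-2-3, at 42.2-fold Pita and 8.17-fold CP190, and tRNA:Phe-GAA-1-2, at 21.9-fold and 31.6-fold, in the same peak as RpL17.

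**Figure D4:**
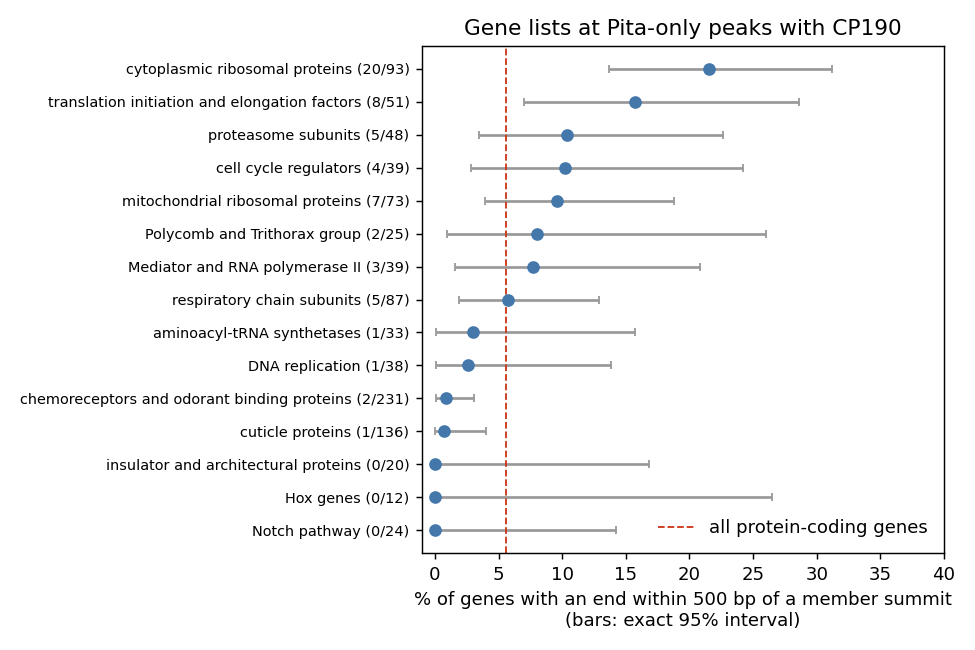
Percent of the genes of each list with an end within 500 bp of a member summit (x axis), with counts beside each name and exact 95% intervals as bars; the dashed line is the 5.56% of all protein-coding genes. Cytoplasmic ribosomal protein genes stand highest at 21.5%.

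The adult Pita list was not used to choose the members and shows how many sites were found again in another stage. An adult Pita peak lay at 540 of 596 members (90.6%, exact 95% interval 88.0% to 92.8%), against a background of 84.7% over all larval Pita peaks. At Pita-only peaks without CP190 the share was 72.1% (217 of 301, 66.7% to 77.1%), and the odds at members were 3.73 times higher (95% interval 2.57 to 5.42, Fisher exact adjusted p = 5.76e-12). Within quartiles of larval Pita fold the odds ratio was 1.58 and missed the threshold (exact Mantel-Haenszel test, adjusted p = 0.0517). In rising quartiles 62.0%, 93.9%, 98.9% and 95.5% of members had an adult peak, against 55.2%, 87.9%, 96.9% and 87.5% of peaks without CP190. Against shared Pita peaks, with 90.5%, the odds ratio was 1.02 (0.620 to 1.67, Fisher exact adjusted p = 1).

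Adult Pita fold at the 540 members ran from 1.79 to 114, with a median of 16.4, and was 5.45 at Pita-only peaks without CP190 and 20.5 at shared Pita peaks. Members lay above the common median of both groups in 61.3% of cases against 21.7% of peaks without CP190, an odds ratio of 5.73 (3.97 to 8.26, Fisher exact adjusted p = 3.62e-23). With each list kept only from its median −log10 q upward it was 1.35 and did not pass (Fisher exact adjusted p = 0.290). Within quartiles of larval Pita fold it was 2.42 and passed (exact Mantel-Haenszel adjusted p = 0.00751). Against shared Pita peaks the odds ratio was 0.753 (0.554 to 1.02) and did not pass (Fisher exact adjusted p = 0.110). Within quartiles of larval Pita fold this ratio was 0.581 and passed (exact Mantel-Haenszel adjusted p = 0.0282), while from the median −log10 q upward it turned to 1.53 and did not pass (Fisher exact adjusted p = 0.163). Sites strong in larvae were strong in adults, with a Spearman correlation of 0.84 over the 540 sites, a description since both values of a point share the site and the antibody. The adult fold was 113.8 at UQCR-Q, 61.7 at Mfe2, 58.7 at Nup205 and 58.2 at Sxl. At trx it was 100.0, beside 9.16 in larvae, and each value is relative to its own list.

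**Figure D5:**
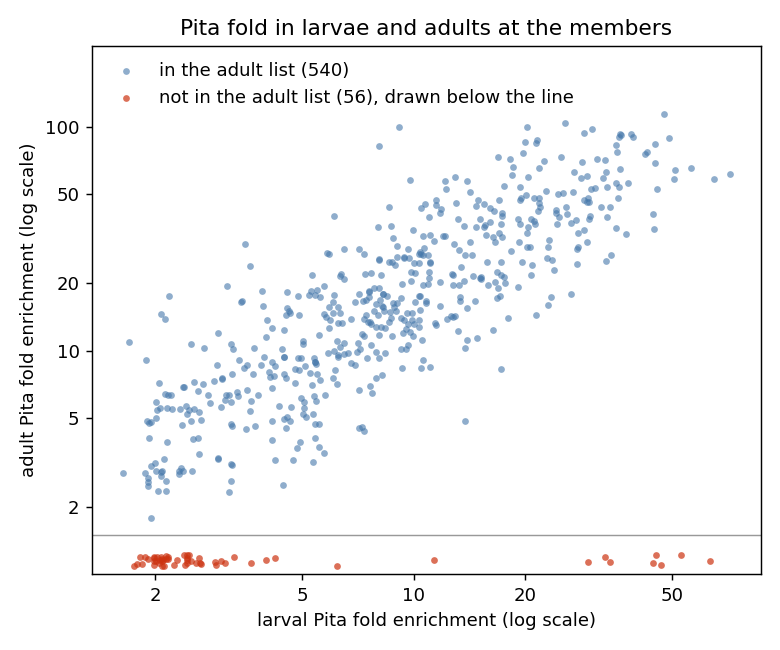
Larval (x axis, log scale) against adult (y axis, log scale) Pita fold at the 540 members with an adult Pita peak, 1 point each, and below the line the 56 members with none, at their larval fold with a small vertical scatter. The 56 fall into 48 sites of at most 11.3-fold and 8 sites from 29.5 to 63.2-fold.

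The 56 members without an adult Pita peak fell at both ends of the range. Of these 46 had a larval Pita fold below 5. Among the 60 strongest members 8 had no adult peak, beside 56 of all 596 members (9.40%). An adult peak was present at 146 of 149 members in the second quartile of Pita fold and 148 of 149 in the third. Such a fall was not particular to the members. In quartiles common to the groups the adult share went from 98.9% in the third to 95.5% in the strongest at members. It went from 98.6% to 90.8% at shared Pita peaks and from 96.9% to 87.5% at Pita-only peaks without CP190. The 8 members had 29.5 to 63.2-fold Pita and 12.8 to 58.5-fold CP190, and their nearest adult Pita peak was 6396 bp or more away. The 5 strongest were the site in Abd-B, the sites between CG5823 and P5cr-2 (52.8-fold), near RpL30 (46.7-fold) and near CG5674 (45.3-fold), and the site between Abl, a tyrosine kinase of axon guidance, and Baldspot, a fatty acid elongase (44.3-fold). A list keeps only peaks that passed the authors' filter on reproducibility, so a site absent from it is not shown to be unbound. The irreproducible discovery rate reached 0.05 in the larval Pita list but only 0.01 in the adult one. Once all lists were cut at the stricter 0.01, 532 of 574 members (92.7%) had an adult Pita peak. Of Pita-only peaks without CP190 200 of 250 (80%) did, an odds ratio of 3.17 (Fisher exact adjusted p = 8.98e-07). What part the filter had in the absences was not tested.

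Few members had an adult CTCF or Su(Hw) peak. A low share follows in part from their choice without larval peaks of these proteins, which also holds for Pita-only peaks without CP190. An adult peak of either lay at 10 of 596 members (1.68%, exact 95% interval 0.808% to 3.06%), against a background of 20.0% over all larval Pita peaks, which include those chosen for larval CTCF or Su(Hw). Pita-only peaks without CP190 had 2.99% (9 of 301), an odds ratio of 0.554 (0.223 to 1.38, Fisher exact adjusted p = 0.296), and shared Pita peaks 71.4% (187 of 262), which follows from their choice on the same proteins in larvae. Within quartiles of larval Pita fold the odds ratio against peaks without CP190 was 0.247 (exact Mantel-Haenszel adjusted p = 0.00734). With each list kept from its median −log10 q upward it was 0.0644 (Fisher exact adjusted p = 0.000287). The latter rests on 2 of 390 members and 8 of 108 peaks without CP190. Shortening the larval lists also redraws both groups, since weaker CTCF, Su(Hw) and CP190 peaks no longer count.

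Of the 10, 9 had adult CTCF and 1 adult Su(Hw), the site near CG31810 at 8.66-fold. The site in Abd-B had 201-fold adult CTCF and the bithorax site inside MSAmiP 186-fold. Their nearest larval CTCF peaks were 7321 bp and 11042 bp away. Absence from the larval CTCF list does not show that CTCF was absent there in larvae. At the other 7 adult CTCF fold was from 1.90 to 2.24, the highest at CG2121. The 2 strong sites both lie in the bithorax complex, a cluster of Hox genes in which boundaries bound by these proteins separate regulatory domains.

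X held 128 of the members (21.5%), against a background of 22.3% of larval Pita peaks, and 24.3% and 21.8% in the Pita-only peaks without CP190 and the shared peaks. The odds ratios of 0.854 (95% interval 0.615 to 1.19) and 0.984 (0.691 to 1.40) did not pass (Fisher exact adjusted p = 0.422 and 1). By arm the share of Pita peaks that were members ran from 39.5% on 3L to 56.5% on 2R, with 3 of 10 peaks on chromosome 4 and no Pita peak on Y. The arms other than X were not tested. The share with a gene end within 500 bp ran from 75.0% on 2L to 90.2% on 3L over the large arms and X. The median distance to the next member was 46410 bp, and 84 members had another within 10000 bp. At mRpL27 and CG15435, and at CG4364 and Nckx30C, 1 CP190 peak covered 2 members.

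The smallest overlaps with CP190 were 95 bp inside sick (1.91-fold Pita, 3.54-fold CP190) and 126 bp near Rm62 (3.01 and 3.35). Just outside, Pita peaks near FASN1 (3.07-fold) and papi (1.86-fold) ended 17 bp from a CP190 peak. The members closest to a Su(Hw) peak lay 27 bp from it near pippin and 87 bp near CG13454, with 9.94-fold and 4.21-fold Pita and 39.2-fold and 19.1-fold CP190.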

How the data were processed

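Per the submitters' processing notes the build was dm6 and the tools were cutadapt, Bowtie2, Picard, bedtools, MACS2 and deepTools, without roles or versions. The authors deposited 7 peak lists of 20 columns, in the layout of an IDR (irreproducible discovery rate) comparison of 2 inputs not tied to samples. Deposited values are a fold enrichment, a linear ratio, with a −log10 q-value, and a score derived from the IDR. The IDR reached 0.05 among larval Pita peaks and 0.01 among CP190 and adult Pita peaks. The 56 columns describing the inputs, 8 in each list, were not used, and the inputs were not compared.

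Only peaks on the chromosome arms, X, Y and chromosome 4 entered. Gene ends came from the RefSeq table of Release 6 plus ISO1 MT, the assembly of dm6, with 17807 genes, and distances run from the summit. A peak is named by the gene holding its summit with an end within 500 bp, otherwise by the closest gene end. Shares have exact Clopper-Pearson intervals and odds ratios Woolf intervals, both 95% and for counting error only. Continuous values were tested as shares above the pooled median. The threshold was an adjusted p of 0.05. Python 3.11.15 with SciPy 1.17.1 was used, and the code was tested on simulated data. Named peaks are the 10 highest by Pita and by CP190 fold, the 5 highest without an adult Pita peak, the extremes of overlap and of the CP190 to Pita ratio, the 3 highest with adult CTCF or Su(Hw), CP190 peaks with 2 members, and up to 4 genes per list. The members, tests and 17 gene lists were chosen with earlier results of these data known. The planned word search in promoters was not run and no sequence was used here.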

Additional observations from a re-analysis of the deposited data

How the results depend on the processing

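The gene-end comparisons kept their direction and passed under every alternative run, which included distances of 200 and 1000 bp, distance from the peak edge and, chosen after seeing the data, ends of protein-coding genes alone. Odds ratios ran from 2.90 to 5.43 against Pita-only peaks without CP190, 3.05 to 3.88 against shared Pita peaks, 1.69 to 2.35 against CTCF-only and 6.50 to 8.45 against Su(Hw)-only peaks with CP190. The member count was 390 with each list kept only from its median −log10 q upward, which shortens the lists, and between 465 and 599 under the others. With that threshold the adult fold comparison fell to 1.35 against peaks without CP190 and turned to 1.53 against shared peaks, adult CTCF or Su(Hw) against peaks without CP190 passed at 0.0644, and the X share turned to 1.46 against peaks without CP190 and 1.09 against shared peaks. Within quartiles of larval Pita fold the adult partner lost the threshold at 1.58, adult CTCF or Su(Hw) passed at 0.247, adult fold against shared peaks passed at 0.581 (exact adjusted p = 0.0282), and the X share against shared peaks was 1.01. Values near 1 that never passed also turned. These were the adult partner against shared peaks, at 0.996 with overlap of 0.5 of the shorter peak, 0.894 on autosome arms and 0.973 with 1 peak per CP190 peak. The X share turned to 1.04 against shared peaks with that overlap, and with summits within 200 bp to 1.07 against peaks without CP190 and 1.20 against shared peaks. For these the cause was not tested. The planned promoter windows were not run. No paired analysis was possible because the inputs of the lists are tied to no sample or replicate number. Replicates were not left out in turn, since each list holds peaks and folds of both inputs together.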

Other observations

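Among members over 5000 bp from any gene end, a set chosen after their values were seen, the strongest Pita peaks were inside CG32982 (36.3-fold), inside psq (32.9-fold), which encodes a BTB-domain transcription factor, inside cnc (25.4-fold), which encodes a regulator of the oxidative stress response, and between genes nearest spok (24.8-fold), an ecdysone synthesis gene. Their CP190 folds were 2.85, 7.35, 16.5 and 11.4. All 4 had an adult Pita peak, of 91.9, 71.1, 50.9 and 39.5-fold.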
